A study of Homo sapiens with 4 samples.

Results

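The respiratory chain genes are the genes for the subunits of the 5 protein complexes of the inner mitochondrial membrane. They were examined in HT-29 cells after silencing of APC. HT-29 is a colorectal cancer cell line, microsatellite stable, with mutated BRAF and a truncated APC, so the NonS cells also lack full-length APC. All cells had been stably transduced with lentivirus and received 500 ng/ml doxycycline (DOX) for 72 h, which induced a non-silencing hairpin in the NonS libraries and a hairpin against APC in the APC shRNA libraries. Each condition was sequenced in biological duplicates, numbered I and II, giving 4 libraries. The study's methods describe puromycin selection after transduction. Clonal selection of the transduced cells is not given in the sources used here.

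Members were chosen by symbol prefix among the 6145 genes of the authors' table, which holds the genes whose mean over the 4 libraries reached 8. Of 98 matching symbols, 4 were dropped by the rule (NDUFAF1, NDUFAF2, NDUFAF3 and NDUFA4L2), which left 94 members of 19729 genes with a value. The genes were thus selected on their mean level, and no level is read as a finding. Mitochondrial DNA encodes 13 members and nuclear DNA 81. Complex I holds 7 mitochondrial-encoded and 36 nuclear-encoded members, complex II 4 nuclear-encoded, complex III 1 and 10, complex IV 3 and 11, and complex V 2 and 18. The other 2 members, ATP5SL and COX7A2L, are not subunits of a single complex. Of all members 87 are subunits and 5 are copies or read-through transcripts.

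Electrons from NADH enter the chain at complex I and those from succinate at complex II, which is also an enzyme of the tricarboxylic acid cycle. They pass through complex III and cytochrome c to complex IV, which reduces oxygen. Complexes I, III and IV pump protons across the membrane, and complex V, the ATP synthase, uses the return of protons to make ATP. Every complex except complex II is built from the products of both genomes, and the mitochondrial mRNAs are cut from long transcripts of both strands of the circular genome. The colon epithelium draws on this chain to burn the fatty acids that gut bacteria release.

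The deposited value of a gene is a whole number of unstated scale that behaved as a level per length, so levels of different genes are set side by side on that scale only. The values of a library summed to between 398338 and 413595, and the depth in reads is unknown. APC itself, the targeted gene, was at 3 and 0 in NonS I and II and at 0 in both APC shRNA libraries, too low to check the labels by these values. The paper lists APC among its downregulated genes and reports that the hairpin silenced APC mRNA and protein. Of 12 colorectal epithelial markers 8 were at 10 or more in every library, while CDX1 and CDX2 lay between 0 and 4. The markers summed to 4380 and 5436 in the NonS and 4757 and 4954 in the APC shRNA libraries. Some moved with the condition, in both directions (values in the order NonS I, NonS II, APC shRNA I, APC shRNA II). Below in both APC shRNA libraries were LGALS4 (557, 646, 175 and 147), CDH1 (98, 119, 74 and 85) and CDX1. So were CEACAM5 (10, 11, 3 and 3) and CEACAM6 (12, 15, 5 and 4). Above in both were KRT18 (1550, 1796, 2061 and 2083), VIL1 (29, 31, 39 and 35) and CDX2. The other markers overlapped. The part of the markers in the differences of the members was not tested. Of 19 markers of blood, fibroblast, endothelial, liver, muscle and erythroid cells 15 were at 0 in every library, and the sum over all 19 ranged from 4 to 9. In bulk RNA, fewer cells with an mRNA and less of the mRNA per cell cannot be told apart.

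As a description on the deposited scale, the mitochondrial mRNAs were far above the nuclear-encoded members in every library. Together the 13 mitochondrial genes made up 18.5% (NonS I), 19.1% (NonS II), 20.6% (APC shRNA I) and 18.4% (APC shRNA II) of all values. The 81 nuclear-encoded members made up 1.81% and 1.72% in the NonS libraries and 1.63% and 1.66% in the APC shRNA libraries. The nuclear share was therefore lower in both APC shRNA libraries, while the mitochondrial shares of the conditions overlapped. With each value multiplied by transcript length, the mitochondrial share was 6.64% and 7.06% (NonS) and 7.80% and 6.89% (APC shRNA). Neither measure is known to be a share of reads. The ratio of the mitochondrial to the nuclear sum was 10.2 and 11.1 in the NonS libraries and 12.6 and 11.1 in the APC shRNA libraries. The median level over the 4 libraries was 3148 for the mitochondrial-encoded and 60.8 for the nuclear-encoded members.

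**Figure D1:**
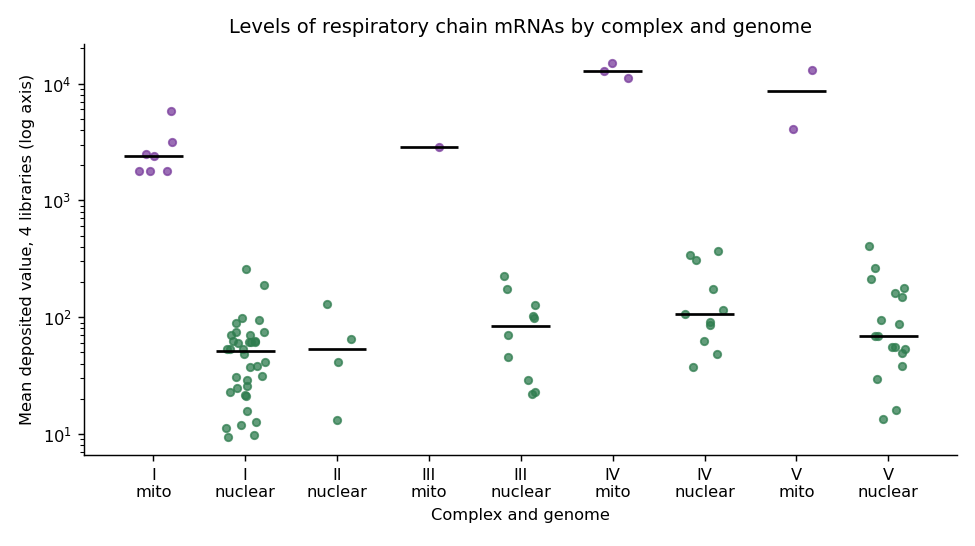
Mean deposited value over the 4 libraries (log axis) of every member of complexes I to V, by complex and by genome (mito, mitochondrial-encoded, purple; nuclear, green), with 1 point per gene and a bar at the median of each column. Every mitochondrial-encoded mRNA lies at 1773 or higher and every nuclear-encoded member at 408.5 or lower.

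Within the mitochondrial genome the upper and lower ranks were held by the same genes. MT-CO2, the copper-binding subunit of complex IV that takes electrons from cytochrome c, was first in all 4 libraries with 14594 (NonS I), 15915 (NonS II), 16347 (APC shRNA I) and 13454 (APC shRNA II). MT-CO1, the catalytic subunit of complex IV, had 9590, 10721, 12888 and 11807 in the same order. MT-CO3, the third mitochondrial subunit of complex IV, had 12010, 12476, 14190 and 12075. Of the complex IV mRNAs, only MT-CO1 had both APC shRNA libraries above both NonS libraries. MT-ATP6, the subunit of complex V that forms the proton path beside the rotor, had 13213 and 13662 in the NonS libraries and 13872 and 11579 in the APC shRNA libraries. These 4 genes held the first 4 ranks in every library, and the places of MT-CO1, MT-CO3 and MT-ATP6 changed between libraries. MT-ND5, MT-ND3 and MT-ND6 held the last 3 ranks in every library and changed places among themselves, with means of 1795, 1784 and 1773 over the 4 libraries.

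Of the 7 mitochondrial genes for complex I, 5 had both APC shRNA libraries above both NonS libraries (33.0% over all genes tested). MT-ND1, a membrane arm subunit next to the quinone site, had 2049 and 2199 in the NonS and 2846 and 2546 in the APC shRNA libraries. The difference, APC shRNA minus NonS on the log2(value + 1) scale, was 0.34 with a standard error (SE) of 0.09, and limma gave an adjusted p of 0.109. MT-ND3, a small membrane arm subunit of complex I, had 1575 and 1580 in the NonS and 1822 and 2158 in the APC shRNA libraries. Its difference was 0.33 (SE 0.11, limma adjusted p = 0.148). Neither gene passed the adjusted p of 0.05 used for a call, although for both no NonS library reached an APC shRNA library. MT-ND4L had 2343, 2421, 2744 and 2529, MT-ND5 had 1549, 1786, 1920 and 1923, and MT-ND6 had 1672, 1684, 1958 and 1778, in the order NonS I, NonS II, APC shRNA I, APC shRNA II. In these 3 genes too the groups did not overlap. MT-ND2 (3028, 3146, 3349 and 3070) and MT-ND4 (5810, 5526, 6507 and 5329) overlapped.

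MT-CYB, cytochrome b and the only mitochondrial-encoded subunit of complex III, had 2845 and 3061 in the NonS and 2888 and 2760 in the APC shRNA libraries, and the groups overlapped. MT-ATP8, a small membrane subunit of complex V, had 3309 and 4204 in the NonS and 3782 and 5020 in the APC shRNA libraries. Replicate II of MT-ATP8 was above replicate I in both conditions, by more than the conditions differed. None of the 13 mitochondrial genes was called, and MT-ND1 was the only one with an unadjusted limma p under 0.05. MT-ND3 passed in 1 of 16 alternatives with all libraries, over which its limma adjusted p ranged from 0.01584 to 0.22123. In 6 of the 13, both APC shRNA libraries were above both NonS libraries, and in 0 both were below, where the same held for 33.0% and 27.5% of the 5376 genes tested. The median difference of the 13 was 0.15, beside 0.03 over all genes tested, and lay between 0.11 and 0.13 under the 4 other scalings. APC shRNA I exceeded NonS I in 13 of 13 genes, whereas APC shRNA II exceeded NonS II in 7 of 13. Without APC shRNA I the median difference was 0.08 and without APC shRNA II it was 0.20, while a correction for GC content raised it to 0.29 and one for gene length lowered it to 0.09.

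**Figure D2:**
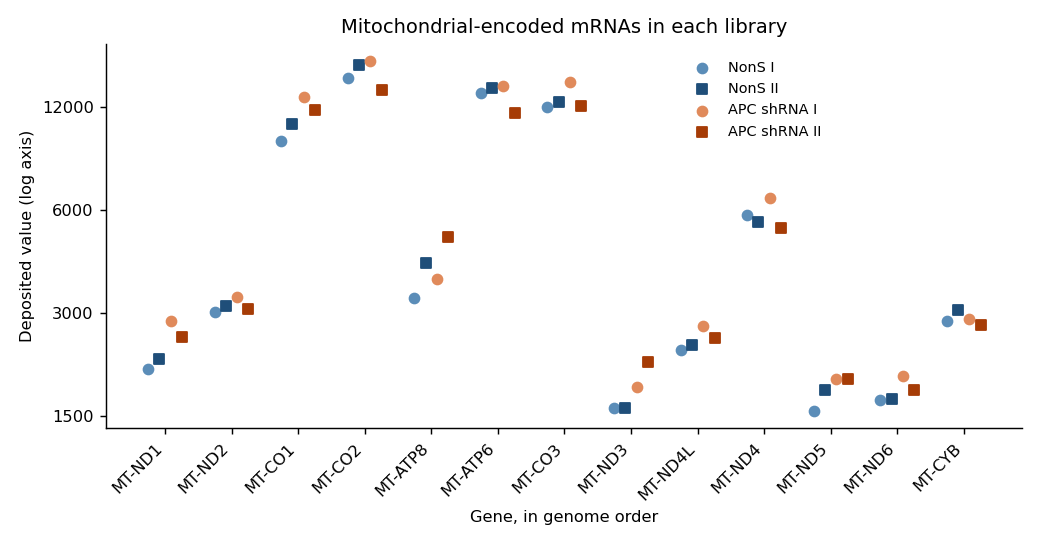
Deposited value (log axis) of the 13 mitochondrial genes in genome order in each library, NonS in blue and APC shRNA in orange, circles for replicate I and squares for replicate II. MT-ND1, MT-CO1, MT-ND3, MT-ND4L, MT-ND5 and MT-ND6 have both APC shRNA points above both NonS points, and the other 7 overlap.

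Shares of the mitochondrial sum within each library do not depend on a scaling between libraries. MT-CO1 held 13.0% and 13.7% of the sum in the NonS and 15.1% and 15.5% in the APC shRNA libraries. MT-ND1 held 2.78% and 2.81% against 3.34% and 3.35%. The shares of 5 genes (MT-ND1, MT-CO1, MT-ND3, MT-ND4L and MT-ND6) were higher after APC silencing, without overlap. Those of MT-CO2, MT-ATP6 and MT-CYB were lower without overlap, and the other 5 overlapped. For scale, the values (not shares) of 33.0% of all genes tested were above and of 27.5% below without overlap. MT-CO2 held 19.8% and 20.3% of the sum against 19.2% and 17.7%, and MT-ATP6 18.0% and 17.4% against 16.3% and 15.2%. These shares are a description, without a test, and a higher share of some mRNAs lowers the others by construction.

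Some mitochondrial genes share sequence. MT-ATP8 and MT-ATP6 overlap by 46 bases in different reading frames at chrM:8527-8572 (GRCh38, plus strand), which is 22.2% of MT-ATP8. This stretch is shown because a read that touches it overlaps both genes. Capitals mark the start codon of MT-ATP6 and the TAG that ends MT-ATP8.
MT-ATP8 and MT-ATP6 overlap: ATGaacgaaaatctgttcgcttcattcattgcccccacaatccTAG
MT-ND4L and MT-ND4 overlap by 7 bases and MT-ATP6 and MT-CO3 by 1 base. How reads over these overlaps were counted is not given in the sources used here. The values of these pairs may therefore not be fully separate. MT-ND6 is the only mitochondrial mRNA copied from the other strand. The strand setting of the counting is not given in the sources used here, so its reads and those of antisense RNA cannot be told apart.

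Among the nuclear-encoded members 1 gene was called. UQCRC2, core protein 2 of complex III (ENSG00000140740, chromosome 16, 21952660 to 21983660, plus strand, GRCh38), had 84 and 82 in the NonS and 120 and 127 in the APC shRNA libraries. Both APC shRNA values were well above both NonS values, and the spread within a condition was small. The means were 83.0 ± 1.41 and 123.5 ± 4.95 (SD, n = 2), 1.49-fold higher after APC silencing, with a difference of 0.57 (SE 0.06, limma adjusted p = 0.046). The adjusted p over the 16 alternatives with all libraries ranged from 0.00041 to 0.04935, so UQCRC2 was called in each. Leaving out any single library kept the difference between 0.53 and 0.61, but limma then called 0 of the 5376 genes, with 1119 to 1330 at an unadjusted p under 0.05.

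Over all 92 members tested limma called 1 gene higher and 0 lower, beside 4.33% of genes tested called higher and 3.70% called lower. At an unadjusted p under 0.05, 4 members were higher and 7 lower, beside 19.8% and 15.8% of all genes tested. Of the 79 nuclear-encoded members tested, both APC shRNA libraries were above both NonS libraries in 12 (15.2%) and below in 30 (38.0%), beside the 33.0% and 27.5% of all genes tested. The median difference of the nuclear-encoded members was -0.06 beside 0.03 over all genes tested, and lay between -0.10 and -0.08 under the 4 other scalings. An exact permutation test of a single gene, 2 libraries against 2, cannot give a two-sided p under 0.333.

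**Figure D3:**
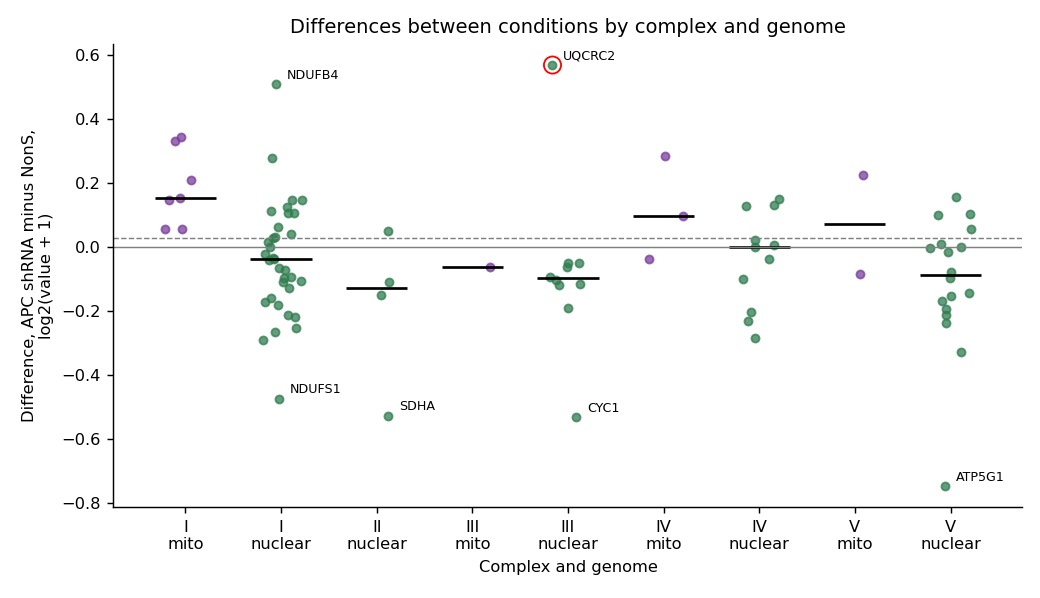
Difference of each tested member of complexes I to V, APC shRNA minus NonS on the log2(value + 1) scale, by complex and genome (mito, purple; nuclear, green). Bars mark the median of each column, the dashed line the median of all genes tested (0.03), and the red ring the only called member, UQCRC2 (0.57). ATP5G1 (-0.75), CYC1 and SDHA (both -0.53) lie lowest.

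In complex I the 34 nuclear-encoded members tested divided into 7 with both APC shRNA libraries above, 10 with both below and 17 that overlapped (33.0% above and 27.5% below over all genes tested), and the median difference was -0.04. None was called. The complex holds matrix arm core subunits, which carry the flavin and iron-sulphur clusters, and accessory subunits, which surround and stabilise the core. NDUFS5, an accessory subunit, had the highest level, with 239 and 228 in the NonS and 301 and 266 in the APC shRNA libraries (difference 0.28, SE 0.09, limma adjusted p = 0.147). NDUFS7, a core subunit with an iron-sulphur cluster, had the lowest level, with 10, 10, 9 and 9. It and NDUFB5 (10, 9, 8 and 12) lay below the mean of 10 needed for the test. They are also the members just inside the mean of 8 of the authors' table. NDUFV3 (5, 5, 4 and 5) and NDUFA5 (6, 3, 5 and 4) lay outside it, with means of 4.75 and 4.5.

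Outside the naming rule, chosen after their values were seen, NDUFB4 and NDUFS1 had the largest differences of complex I. The accessory subunit NDUFB4 had 57 and 65 in the NonS and 78 and 97 in the APC shRNA libraries (difference 0.51, SE 0.15, limma adjusted p = 0.128). NDUFS1, the largest core subunit of the matrix arm, had 16 and 14 in the NonS and 11 and 10 in the APC shRNA libraries (difference -0.47, SE 0.10, limma adjusted p = 0.083). A correction for GC content brought the difference of NDUFS1 to -0.31. NDUFB4 passed in 2 and NDUFS1 in 3 of 16 alternatives. The 6 nuclear core subunits tested had a median difference of -0.07, with 0 above and 3 below (33.0% and 27.5% over all genes tested). Their median went to -0.13 with GC content correction. The 27 accessory subunits tested had a median of -0.04, with 7 above and 6 below (25.9% and 22.2%), beside the same 33.0% and 27.5%. Their median turned to 0.03 without library APC shRNA I.

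Complex II, the succinate dehydrogenase, consists of 4 nuclear-encoded subunits and 2 of them were lower in both APC shRNA libraries (27.5% of all genes tested were). SDHA, the flavoprotein that oxidises succinate (ENSG00000073578, chromosome 5, 218241 to 256700, plus strand, GRCh38), had the highest level of the complex, with 148 and 160 in the NonS and 109 and 104 in the APC shRNA libraries. The difference was -0.53 (SE 0.07, limma adjusted p = 0.053), so the gene narrowly missed the call, and it passed in 8 of 16 alternatives. SDHA has pseudogenes of near-identical sequence, and how shared reads were counted is not given in the sources used here. SDHB, the iron-sulphur protein, had 66, 68, 61 and 63 (difference -0.11, limma adjusted p = 0.253). The membrane anchors did not separate, with 49, 38, 32 and 47 for SDHD and 13, 13, 13 and 14 for SDHC, the lowest of the complex.

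In complex III, 1 of the 10 nuclear-encoded members was above, 6 were below and 3 overlapped (33.0% above and 27.5% below over all genes tested). All except UQCRC2 had a negative difference in the main analysis, and that of UQCRB went from -0.06 to 0.21 with GC content correction. UQCRC1, core protein 1 and the partner of UQCRC2 in the matrix domain of the complex, had 73, 73, 71 and 65 (difference -0.10, SE 0.07, limma adjusted p = 0.371). The ratio of these partners was not tested. CYC1, cytochrome c1 and chosen after its values were seen, had 215 and 199 in the NonS and 151 and 135 in the APC shRNA libraries. Its difference was -0.53 (SE 0.09, limma adjusted p = 0.067), without a call in the main analysis and with one in 8 of 16 alternatives. UQCRH, the hinge protein that helps cytochrome c dock, was highest with 252, 219, 215 and 218. UQCRB was lowest with 24, 21, 23 and 20. UQCRHL, an intronless copy of UQCRH, had 24, 24, 22 and 22, and 516 aligned bases of their transcripts were 97.9% identical, so the division of reads between them is uncertain.

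**Figure D4:**
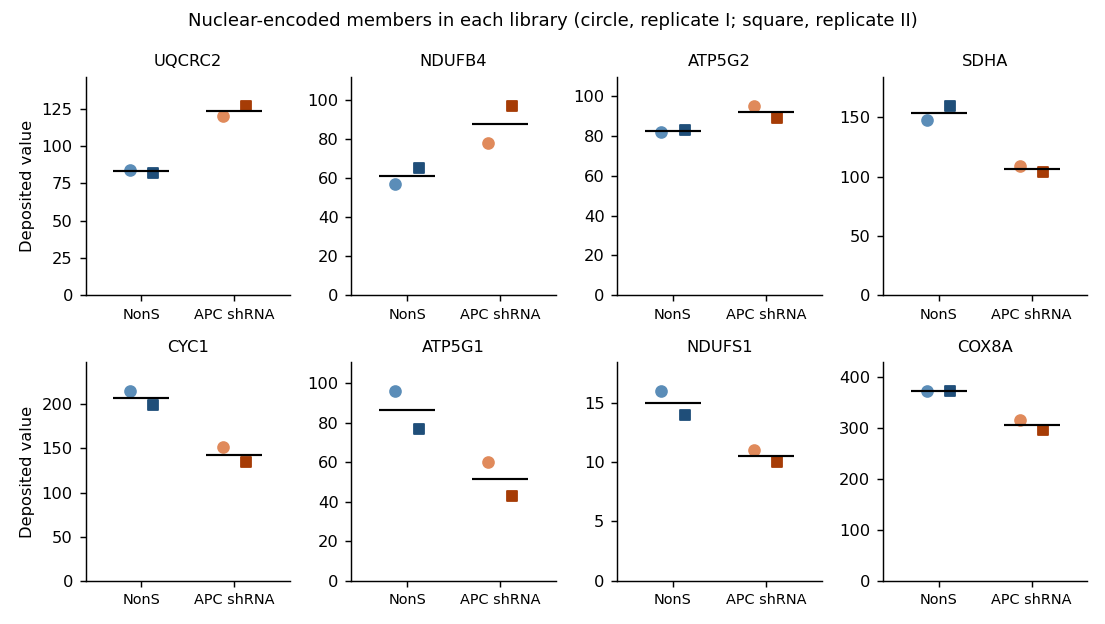
Deposited value in each library of 8 nuclear-encoded members, on linear axes from 0, with NonS in blue, APC shRNA in orange, circles for replicate I, squares for replicate II and bars at the mean of each condition. UQCRC2, NDUFB4 and ATP5G2 are higher in both APC shRNA libraries, SDHA, CYC1, ATP5G1, NDUFS1 and COX8A are lower in both, and only UQCRC2 passed the test.

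In complex IV the 11 nuclear-encoded members had a median difference of -0.002, which turned to 0.02 with a correction for GC content and to 0.01 without library NonS II, with 1 above, 4 below and 6 overlapping (33.0% above and 27.5% below over all genes tested). COX6A1, a regulatory subunit in its ubiquitous isoform, was highest with 385, 381, 370 and 344 (difference -0.10, limma adjusted p = 0.353), and its difference turned to 0.10 with GC content correction. COX8A, the small ubiquitous subunit and named after its values were seen, had 372 and 372 in the NonS and 316 and 295 in the APC shRNA libraries (difference -0.28, SE 0.06, limma adjusted p = 0.092). COX6C was lowest with 32, 39, 34 and 44. NDUFA4, first assigned to complex I and now to complex IV, had 64, 55, 63 and 69 and its groups overlapped. The isoforms used in other tissues had values of 0 or 1, which on a rounded scale does not show that they were absent: COX4I2 (lung), COX6A2 and COX7A1 (heart and skeletal muscle), COX7B2 and COX8C (testis) were listed at 0 in all libraries, and COX6B2 (testis) at 1 in each. NDUFA4L2, a hypoxia-induced relative of NDUFA4 that the rule left out, had 11 and 45 in the NonS and 0 and 8 in the APC shRNA libraries, and its replicates differed too much for a call (limma adjusted p = 0.251).

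In complex V, 8 of 18 nuclear-encoded members were below in both APC shRNA libraries, 1 was above and 9 overlapped (27.5% below and 33.0% above over all genes tested), with a median difference of -0.09. ATP5B, the catalytic beta subunit, was the highest nuclear-encoded member of the chain with 442 and 423 in the NonS and 386 and 383 in the APC shRNA libraries (difference -0.17, SE 0.06, limma adjusted p = 0.156). ATP5A1, the alpha subunit beside it in the head, had 59, 58, 52 and 53, and ATP5C1, the gamma subunit of the central stalk, had 179, 167, 143 and 150. The lowest member was the read-through ATP5J2-PTCD1 with 12, 14, 14 and 14, which shares 177 exonic bases with ATP5J2. ATP5EP2, a processed copy of ATP5E, had 185, 162, 171 and 189, above the 46, 49, 48 and 54 of ATP5E itself. The values behaved as a level per length, and the transcript lengths used were 156 bases for ATP5EP2 and 3665 for ATP5E. A higher value therefore need not mean more reads. Transcripts of ATP5EP2 and ATP5E were 96.2% identical over 156 aligned bases, and the split of reads between them is uncertain.

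The 3 genes for subunit c, which encode the same mature protein of the rotor ring with different import sequences, did not move alike. ATP5G1 (ATP5MC1) had 96 and 77 in the NonS and 60 and 43 in the APC shRNA libraries, the largest difference of all members at -0.75 (SE 0.23, limma adjusted p = 0.132). ATP5G2 (ATP5MC2) had 82 and 83 in the NonS and 95 and 89 in the APC shRNA libraries (difference 0.15, SE 0.06, limma adjusted p = 0.199). ATP5G3 (ATP5MC3) had 32 and 32 in the NonS and 26 and 29 in the APC shRNA libraries (difference -0.21, SE 0.08, limma adjusted p = 0.167), which shrank to -0.01 with a correction for GC content. None of the 3 was called in the main analysis, and ATP5G1 passed in 3 and ATP5G3 in 1 of 16 alternatives. Replicate II of ATP5G1 was below replicate I in both conditions. Their summed value was 210 and 192 in the NonS and 181 and 161 in the APC shRNA libraries. The share of ATP5G1 in that sum was 45.7% and 40.1% in the NonS and 33.1% and 26.7% in the APC shRNA libraries, while that of ATP5G2 was 39.0% and 43.2% against 52.5% and 55.3%.

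**Figure D5:**
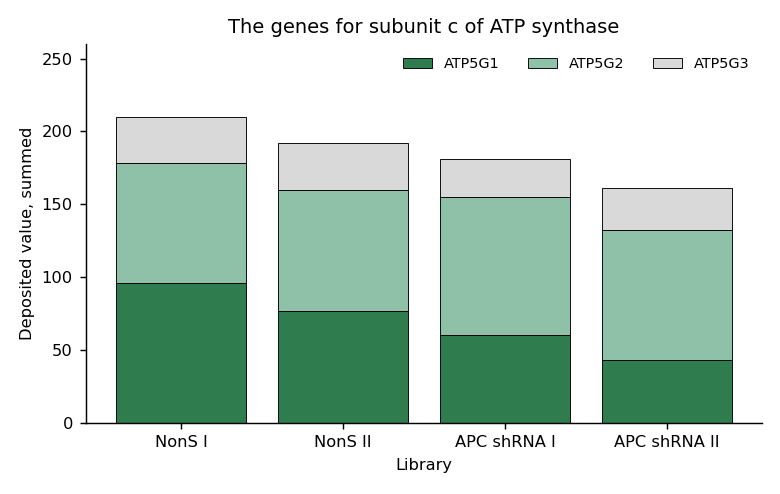
Deposited values of ATP5G1, ATP5G2 and ATP5G3, the genes for subunit c of ATP synthase, stacked for each of the 4 libraries on a linear axis from 0. The sum goes from 210 and 192 in the NonS to 181 and 161 in the APC shRNA libraries, and ATP5G1 takes a smaller part in both APC shRNA libraries.

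The promoters of the called gene, of SDHA and of the subunit c genes that differed in direction are printed here so that the genes can be compared at their starts. Each runs 5′ to 3′ on the gene's strand over 300 bases around the RefSeq start (GRCh38.p14): UQCRC2 at chr16:21953111-21953410 (plus), SDHA at chr5:218070-218369 (plus), ATP5G1 at chr17:48892537-48892836 (plus) and ATP5G2 at chr12:53676034-53676333 (minus). Capitals mark the core letters GCGCANGCG, bound by NRF1, a factor known to bind many respiratory chain promoters, on either strand.
UQCRC2: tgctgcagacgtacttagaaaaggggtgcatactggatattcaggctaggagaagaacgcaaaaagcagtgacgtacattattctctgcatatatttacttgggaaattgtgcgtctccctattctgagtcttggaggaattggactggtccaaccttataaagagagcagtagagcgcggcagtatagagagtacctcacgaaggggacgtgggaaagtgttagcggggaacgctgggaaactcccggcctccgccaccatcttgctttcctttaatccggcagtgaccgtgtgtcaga
SDHA: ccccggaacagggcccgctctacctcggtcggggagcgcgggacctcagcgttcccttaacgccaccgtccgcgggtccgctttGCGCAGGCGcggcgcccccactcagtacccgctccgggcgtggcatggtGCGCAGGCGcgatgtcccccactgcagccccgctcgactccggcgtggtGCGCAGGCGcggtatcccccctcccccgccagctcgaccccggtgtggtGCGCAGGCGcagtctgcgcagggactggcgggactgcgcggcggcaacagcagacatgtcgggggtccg
ATP5G1: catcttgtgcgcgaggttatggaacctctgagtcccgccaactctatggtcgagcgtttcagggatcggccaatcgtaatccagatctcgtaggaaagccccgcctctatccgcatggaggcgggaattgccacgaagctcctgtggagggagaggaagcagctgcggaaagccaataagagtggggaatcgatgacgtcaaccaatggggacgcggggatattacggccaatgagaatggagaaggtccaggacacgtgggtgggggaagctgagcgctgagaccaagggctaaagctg
ATP5G2: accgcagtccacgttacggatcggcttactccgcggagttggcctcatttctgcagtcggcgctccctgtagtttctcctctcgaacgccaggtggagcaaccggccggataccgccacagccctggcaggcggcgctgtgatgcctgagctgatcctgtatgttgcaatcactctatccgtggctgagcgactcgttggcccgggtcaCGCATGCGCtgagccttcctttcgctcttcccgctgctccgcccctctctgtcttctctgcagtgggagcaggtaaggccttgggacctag
SDHA held 4 matches, ATP5G2 held 1 and UQCRC2 and ATP5G1 held 0. No ETS core CCGGAAG, the site of GABPA, and no YY1 core AAGATGGC was found in these windows on either strand.

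RefSeq promoters were matched for 63 of the 81 nuclear-encoded members by current symbol. The NRF1 letters were in 21 of them (33.3%), beside 8.05% of 27305 promoters of that length. The ETS core was in 19 (30.2%, beside 10.7%) and the YY1 core in 11 (17.5%, beside 3.03%). These factors are long known to regulate respiratory chain genes, and a match in a window is a description of its letters. Members with and without the NRF1 letters had the same median difference to the second decimal (-0.06 in 20 and -0.06 in 42 members tested). The medians were -0.05 with the ETS core (19 members) and -0.07 without it (43 members), and -0.04 with the YY1 core (10 members) and -0.07 without it (52 members).

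Outside the subunits, the 2 remaining members were higher in both APC shRNA libraries without a call. ATP5SL (DMAC2), which takes part in complex I assembly, had 38, 38, 47 and 43 (difference 0.24, limma adjusted p = 0.124), and COX7A2L, which joins complexes III and IV in a supercomplex, had 26, 25, 27 and 32 (difference 0.20, limma adjusted p = 0.282).

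Lists of genes that build, express and feed the chain were examined beside the members, and their calls stand beside the 4.33% called higher and 3.70% called lower over all genes tested. Of the complex I assembly factors 10 of 16 were tested, and 1 was called lower: NDUFAF2, a chaperone of late complex I assembly, had 33 and 33 in the NonS and 19 and 19 in the APC shRNA libraries (difference -0.77, SE 0.05, limma adjusted p = 0.042). The median of that list was -0.12. Assembly factors of complexes II, III and V (8 of 14 tested, median 0.09) and of complex IV (16 of 26 tested, median -0.02) had 0 calls. At an unadjusted limma p under 0.05 the former had 2 higher and 1 lower, and the latter 2 higher and 3 lower. Over all genes tested 19.8% were higher and 15.8% lower at that threshold.

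Of the genes for mitochondrial DNA maintenance and transcription 8 of 18 were tested, with 1 call in each direction and a median of -0.11. TOP1MT, the mitochondrial topoisomerase, had 15 and 15 in the NonS and 20 and 20 in the APC shRNA libraries (difference 0.39, limma adjusted p = 0.048). Its duplicates were the same whole number in each condition, as were those of NDUFAF2, and rounding can hide spread between them. The part of rounding in the calls of these lists was not tested. MGME1, an exonuclease of mitochondrial DNA, had 15 and 14 against 10 and 10 (difference -0.49, limma adjusted p = 0.049). TFAM, the main packaging and transcription factor of mitochondrial DNA, had 16, 9, 10 and 9, and POLRMT, the mitochondrial RNA polymerase, had 17, 15, 15 and 14, without a call. Among genes of mitochondrial RNA processing 11 of 21 were tested, the median was -0.07 and 1 was called lower. This was PNPT1, the polynucleotide phosphorylase of the matrix, with 18 and 17 in the NonS and 12 and 12 in the APC shRNA libraries (difference -0.51, limma adjusted p = 0.047).

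Of the electron carriers and coenzyme Q genes 8 of 20 were tested, with a median of -0.15 and 1 call. ETFB, a subunit of the flavoprotein that carries electrons from fatty acid oxidation, fell from 55 and 59 to 35 and 34 (difference -0.71, SE 0.06, limma adjusted p = 0.045). Of 18 genes of the tricarboxylic acid cycle and pyruvate dehydrogenase 15 were tested. Both APC shRNA libraries were below both NonS libraries in 8 of them and above in 1 (27.5% and 33.0% over all genes tested), the median was -0.26 and 1 gene was called. SUCLG2, a subunit of succinyl-CoA ligase, the enzyme before complex II in the cycle, fell from 17 and 16 to 8 and 9 (difference -0.88, SE 0.09, limma adjusted p = 0.045). Its partner SUCLG1, named after its values were seen, had 59 and 54 against 39 and 37 and narrowly missed the call (difference -0.56, limma adjusted p = 0.052).

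Of 14 nuclear regulators of respiratory chain genes 5 passed the filter, with 0 calls and a median of -0.36. Among them 1 was lower at an unadjusted limma p under 0.05 (15.8% over all genes tested). The coactivator PPARGC1A and the receptors ESRRB and ESRRG were listed at 0 in every library, and NRF1 and GABPA lay between 1 and 7. Like those of the members, the calls of these lists were lost when any library was left out.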

How the data were processed

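RNA of HT-29 cells was sequenced as stranded poly(A) libraries with 50 bp reads. Per the study's methods the authors used TopHat2 on human assembly 38, htseq-count on GENCODE v29 and DESeq2 1.4.1 (the labels name hg19). Each deposited file holds a whole number for every gene, used here as a score: where replicates summed to at least 10 and under 40, their variance was 0.484 (NonS) and 0.363 (APC shRNA) of the Poisson variance, so no count test or counting interval was used. The authors' table also holds fold changes and adjusted p-values, which were not used. 
Members and lists were chosen with earlier results of these data known. Genes with a mean of at least 10 (5376) were tested on log2(value + 1) with limma 3.58.1 (R 4.3.3, moderated with a mean-variance trend), a call being a Benjamini-Hochberg adjusted p under 0.05 over all of them. Differences understate the change of low genes. The p-values measure the spread between these duplicates of 1 cell line. Named genes were every mitochondrial mRNA, called members, the highest and lowest member of each complex, the subunit c genes, tissue isoforms, members at the table's limit, and up to 4 called genes per list; other named genes were chosen after their values were seen. The limma script was run on simulated data with independent noise in each library. That run does not cover a deviation shared by same-numbered replicates and is no support for the calls. Python 3.11.15, pandas 2.3.3, numpy 2.4.6 and matplotlib 3.10.9 were used, with Biopython 1.88 for alignments. Alternatives changed the scaling, filter, pseudocount, moderation, replicate block, GC content and length corrections and the libraries kept.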

Additional observations from a re-analysis of the deposited data

How the results depend on the processing

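No called value changed sign, and the overall mitochondrial and nuclear medians kept theirs. Of the 92 members tested 34 changed sign under some alternative, 21 with all libraries, and no such change had a call on either side. Members called higher numbered 1, but 10 with GC content correction and a replicate block together, 3 with a block and median-of-ratios scaling, 0 at over 4-fold and an adjusted p under 0.01, and 0 to 0 when a library was left out. Members called lower numbered 0, but 2 (SDHA and CYC1) with median-of-ratios scaling, equal totals, equal totals of nuclear-encoded genes, robust moderation or GC content correction. They numbered 1 with every gene of a total of at least 1 (NDUFS7) or with length correction (SDHA), 3 with a replicate block (ATP5G1, CYC1 and NDUFS1), 10 with block and GC content correction and 14 with block and median-of-ratios scaling. The last setting was added after seeing the data. The cause of these shifts was not tested. The median difference of mitochondrial mRNAs was 0.2853 with GC content correction, alone or with the block, against a spread between replicates of 0.0645. That of nuclear-encoded members was -0.0965 with median-of-ratios scaling, alone or with the block, and -0.0916 with equal totals. Without single libraries the mitochondrial median ranged from 0.0835 to 0.2042 and the nuclear from -0.0828 to -0.0432. Of the values of 23 named members over the alternatives, 426 stayed on their side of the threshold, 30 gained a call and 4 (UQCRC2 without any library) lost it.

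The labels do not say that I and II mark a shared batch. Replicate differences of NonS and APC shRNA correlated at 0.724 over 5376 genes and 0.251 over the 92 members, a hint from the data and not the design. Over all genes the block gave 523 higher and 500 lower calls (1235 and 1296 with GC content correction, 1220 and 1493 with median-of-ratios scaling) beside 233 and 199. Without a filter beyond a total of 1 the calls were 952 and 515, and the other settings with all libraries 139 to 438 higher and 134 to 480 lower. The median of 5 smaller groups changed sign under some alternative. The scaling of the values and the depth in reads are unknown, 1 cell line in duplicate was sequenced, and rounding limits values near 10.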

Other observations

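Some genes of ATP synthase stand in the table under symbols that the prefixes do not reach. ATP5IF1 (listed as ATPIF1), the inhibitor that blocks the enzyme when it runs backwards, had 42 and 43 in the NonS and 29 and 26 in the APC shRNA libraries (difference -0.61, SE 0.08, limma adjusted p = 0.049), a call that was lost when any library was left out. ATP5MD (USMG5), a small membrane subunit, had 100, 76, 77 and 97 and overlapped between conditions. ATP5MPL (C14orf2), another small membrane subunit, had 15, 14, 16 and 16 (difference 0.13, limma adjusted p = 0.225).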
